A study of Mus musculus with 3 samples.

Results

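The replication-dependent histone genes of the mouse were examined for Ser5-phosphorylated RNA polymerase II (Ser5 Pol_II) in macrophages. The set was taken by name. It holds every gene of the GENCODE M1 annotation on mm9 whose symbol starts with Hist1h, Hist2h, Hist3h or Hist4h, which gave 70 of the 37252 annotated genes on chromosomes 1 to 19 and X. Of the 70, 67 are annotated as protein-coding and 3 as pseudogenes (Hist1h2aj, Hist2h3c2 and Hist3h2bb-ps). The 56 Hist1 genes lie on chromosome 13, the 10 Hist2 genes on chromosome 3, the 3 Hist3 genes on chromosome 11 and Hist4h4, the only Hist4 gene, on chromosome 6. By product there are 6 H1, 20 H2A, 19 H2B, 12 H3 and 13 H4 genes.

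The study mapped Ser5 Pol_II by chromatin immunoprecipitation and sequencing (ChIP-Seq), in which an antibody pulls down the DNA that a cross-linked protein covers. The cells were primary bone marrow-derived macrophages of female Fvb mice (Fvb/Hsd in the study's methods) on day 7 of differentiation in medium conditioned by L929 fibroblasts, which supplies the growth factor that macrophages need. Ser5 Pol_II was mapped once in untreated cells and once in cells given 10 ng/ml lipopolysaccharide (LPS), a bacterial cell wall component that activates macrophages, for 2 h, and input DNA was sequenced once from untreated cells. No genetic change is named for any of the 3 libraries, and the sources used here do not say how many animals each one pooled. Because each condition had a single library, differences had no replicate check and were not tested, and the 95% intervals given cover counting error only.

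Replication-dependent histone genes supply the histones that package newly copied DNA, and in most dividing cells their transcription is tied to S phase. H2A, H2B, H3 and H4 form the core of the nucleosome, and H1 is the linker histone that binds where DNA enters and leaves it. The genes are short, lie in clusters, mostly lack introns, and their mRNAs end in a conserved hairpin in place of a poly(A) tail. The antibody recognizes the Pol_II C-terminal repeat phosphorylated at serine 5, a form that is most abundant near gene starts.

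The hairpin is shown first, because it is the mark by which this gene class is known. It was searched for as 16 bases, a stem of 6 bases with a 4-base loop, within 100 bases after the coding sequence on mm9. It was found in 55 of the 67 members with a coding sequence, between 22 and 59 bases after the stop codon. Capitals mark the 6 bases on each side that pair with each other, and the 3 most common forms were present in 36, 9 and 8 members.
Hairpin form 1: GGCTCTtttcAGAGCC
Hairpin form 2: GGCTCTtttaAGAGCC
Hairpin form 3: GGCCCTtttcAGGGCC
No match under this search was found at 12 members, among them Hist1h4i, Hist2h4 and Hist2h2bb, which says only that these letters are not in that window.

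The H4 genes show why copies matter for tags of this length. All 13 have a coding sequence of 312 bases, and their identity over it was 93.9% in the median pair, with 85.3% in the least alike pair and 100% in the most alike. The first 45 bases of 6 of them follow, which is the length of the untreated Ser5 tags. Capitals mark bases that differ from the base most common among the 13 genes at that position.
Hist1h4m (chr13:21903653-21903697, plus strand): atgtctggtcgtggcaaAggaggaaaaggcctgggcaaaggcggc
Hist1h4n (chr13:21923983-21924027, minus strand): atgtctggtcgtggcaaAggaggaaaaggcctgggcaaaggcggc
Hist1h4i (chr13:22133148-22133192, minus strand): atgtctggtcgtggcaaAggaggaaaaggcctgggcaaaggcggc
Hist1h4c (chr13:23790274-23790318, minus strand): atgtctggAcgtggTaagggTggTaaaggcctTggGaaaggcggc
Hist2h4 (chr3:96067183-96067227, minus strand): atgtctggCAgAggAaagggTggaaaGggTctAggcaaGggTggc
Hist4h4 (chr6:136752856-136752900, minus strand): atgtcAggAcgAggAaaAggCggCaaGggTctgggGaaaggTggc
Hist1h4m, Hist1h4n and Hist1h4i carry the same 45 bases, so a tag that starts at the first of them could not be placed. Compared with the most common base at each of the 312 coding positions, Hist4h4 differs at 41 and Hist2h4 at 30, whereas Hist1h4m and Hist1h4n each differ at 5.

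Many members lie head to head, and 14 such divergent pairs had starts less than 1 kb apart, 13 of them an H2A gene with an H2B gene. The gap between the starts was 167 bp at the shortest, 228 bp in the median and 692 bp at the longest, so that both members of a pair share most of the sequence before their starts. The sequence between the starts of a Hist1 pair and of a Hist2 pair, and the 150 bases before the starts of Hist1h1c and Hist2h3b, are shown because these genes are among those described below. Capitals mark the TATA box letters TATAAA, the CCAAT box letters CCAAT and the octamer ATTTGCAT, each searched on both strands.
Hist1h2ac to Hist1h2bc (chr13:23775818-23776067, plus strand): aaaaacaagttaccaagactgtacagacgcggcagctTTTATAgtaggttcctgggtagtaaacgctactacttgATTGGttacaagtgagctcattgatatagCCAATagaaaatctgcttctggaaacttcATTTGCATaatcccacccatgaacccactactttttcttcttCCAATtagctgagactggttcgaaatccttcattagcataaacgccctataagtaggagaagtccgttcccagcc
Hist2h2ac to Hist2h2be (chr3:96024804-96025043, plus strand): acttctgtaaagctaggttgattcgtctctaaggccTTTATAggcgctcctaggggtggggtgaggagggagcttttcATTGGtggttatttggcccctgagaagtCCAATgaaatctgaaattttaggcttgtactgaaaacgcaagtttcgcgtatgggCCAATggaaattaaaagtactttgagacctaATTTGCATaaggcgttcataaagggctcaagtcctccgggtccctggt
Hist1h1c (chr13:23830526-23830675, plus strand): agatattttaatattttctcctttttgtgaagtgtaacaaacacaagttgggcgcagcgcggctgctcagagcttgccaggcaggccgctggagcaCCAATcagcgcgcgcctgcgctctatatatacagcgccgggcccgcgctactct
Hist2h3b (chr3:96072427-96072576, plus strand): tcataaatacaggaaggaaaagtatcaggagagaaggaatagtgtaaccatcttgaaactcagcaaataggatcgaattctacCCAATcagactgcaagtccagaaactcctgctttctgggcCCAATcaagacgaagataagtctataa
In the 250 bases before the annotated start, CCAAT was present at 57 of 67 coding members, or 85.1%, compared with 35.0% of all 22350 coding genes. All 6 H1, 19 H2A and 18 H2B coding members had it, as did 10 of 11 H3 members, but only 4 of 13 H4 members. TATAAA was present at 33 coding members, or 49.3%, compared with 12.3% of all coding genes. The octamer, known from H2B promoters, was present at 8 H2B members and at 7 H2A members and at none of the H1, H3 and H4 members, compared with 1.62% of all coding genes. These are matches of letters and were not tested as binding sites, and paired members share theirs.

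Repeated copies limited how much of each gene could be measured, and the limit differed between products. A position was called unique when the 30 bases read from it, the length of the LPS tags, occur once in the mm9 genome. The median share of the gene body that was unique was 93.2% for H1 genes, 52.8% for H4, 41.0% for H3, 44.3% for H2B and 39.9% for H2A, and it was under 50% in 38 of the 70 members. At 45 bases the median over all members was 55.3%, compared with 47.6% at 30 bases. For 57 members every repeated stretch of the body was matched elsewhere in the set. The flanks were more distinctive, so that the median share over the gene with 1 kb on each side was 80.8%.

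In 2 places whole genes were hidden. On chromosome 13, a stretch with Hist1h2bq, Hist1h2ao and Hist1h4m has an inverted copy with Hist1h4n, Hist1h2ap and Hist1h2br. Hist1h2bq and Hist1h2br were identical over all 5788 bases of their regions and had 0 tags in all 3 libraries, and Hist1h2ao and Hist1h2ap differed at 1 of 2519 bases. On chromosome 3, Hist2h2aa1 and Hist2h2aa2 were identical over their whole 578-base bodies, of which 0.692% was unique. Values for these genes come from their edges, or do not exist.

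In untreated macrophages the histone genes were among the most heavily Ser5-occupied genes measured. Tags were counted by their 5′ ends over the annotated gene with 1 kb on each side and expressed as TPM (tags per 1000000 tags of the library) per kb. The median density over the 70 members was 32.1 untreated, 19.8 after LPS and 0.989 in the input. Over the 22350 protein-coding genes the medians were 0.491, 0.393 and 0.531. The regions together cover 205 kb, and they held 43294 tags or 0.568% of the untreated Ser5 library, 22329 tags or 0.357% of the LPS library and 1421 tags or 0.0189% of the input. The untreated density was 30.1 times that of the input (28.6 to 31.8) and the density after LPS 18.9 times (18.0 to 20.0). These ratios moved with the setting by more than their intervals, the former from 20.2 with 1 tag per position and strand to 57.3 when scaled to tags outside the peaks and the latter from 15.04 to 38.8.

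Measured by gene, 64 of 67 members were at least 2-fold above input in untreated cells, compared with 36.3% of all genes, and 63 of 66 after LPS, compared with 32.4% (with at least 10 tags over the 2 libraries compared). A deposited Ser5 peak lay within 1 kb of 64 of the 70 members in untreated cells, compared with 38.6% of all genes, and of 64 after LPS, compared with 36.4%. These were the same 64 members. A peak overlapped the gene body itself in 60 members in each condition, a rule for which no share of all genes was computed. The peaks over the members had a median score of 1712 in untreated cells and 959 after LPS, where the score is minus 10 times the log10 of the peak caller's p-value, and all peaks of the lists had medians of 100.3 and 101.7.

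Histone genes are short, and a density over the gene with its flanks favours short genes, so the tags within 1 kb of the annotated start were also ranked. By that measure 9 of the 20 coding genes with the most untreated Ser5 tags were histone genes, and 25 of the first 100 were. After LPS 1 of the first 20 was, and 7 of the first 100. Hist4h4 had rank 3 of all coding genes in untreated cells with 2745 tags at its start, between Fth1, the ferritin heavy chain, with 3255 and Actb, beta-actin, with 2737. After LPS Hist4h4 had 928 tags and rank 71. Divergent and neighbouring members share tags, since the regions of 47 members overlap that of another member.

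**Figure D1:**
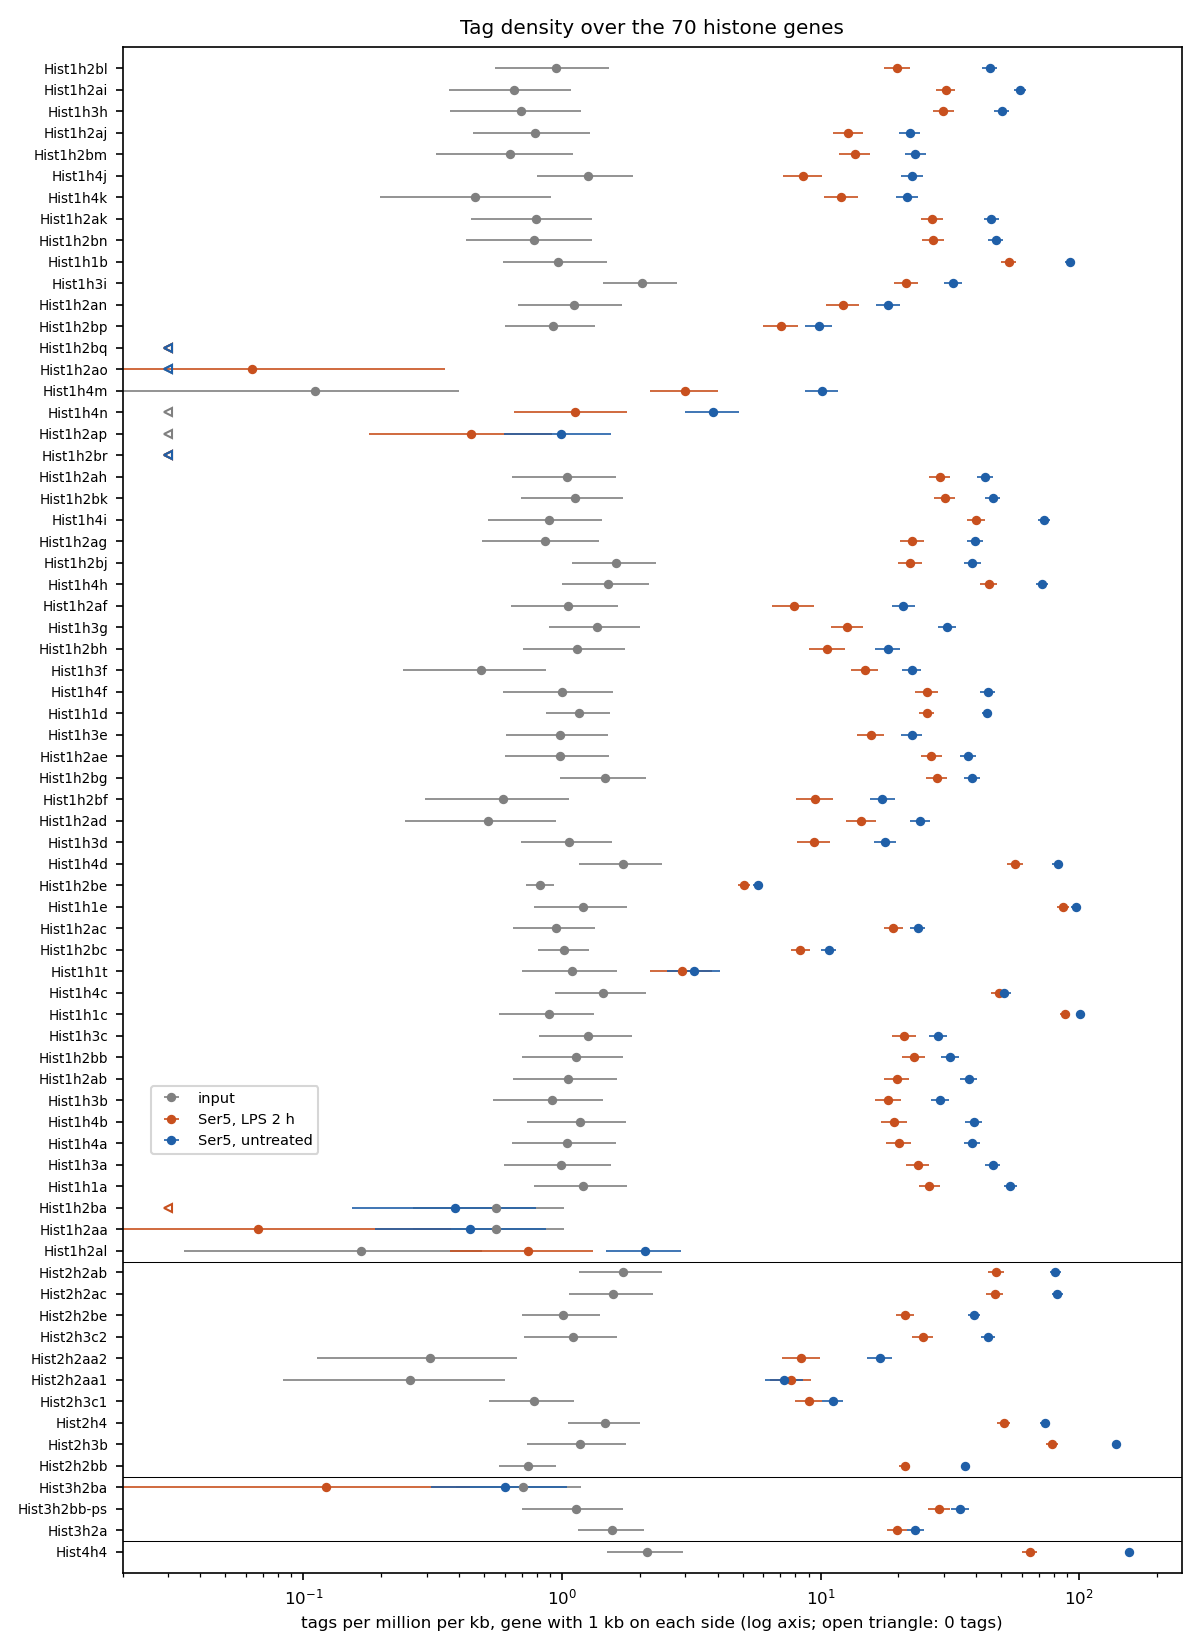
Tag density (TPM per kb, log axis) over each of the 70 histone genes with 1 kb on each side, in the order of the clusters, for untreated Ser5 (blue), Ser5 after LPS (orange) and input (grey). Lines are 95% counting intervals and open triangles mark 0 tags. Most members sit far to the right of the input with the untreated point to the right of the LPS point, and Hist4h4 has the highest untreated density, 156.

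Along the genes, Ser5 tags were concentrated at the start. Over the 53 coding members shorter than 1100 bp, tags on the sense strand were densest in the 50-bp bin centred 25 bp after the annotated start, at 188 TPM per 1000 unique positions in untreated cells and 113 after LPS. The antisense-strand tags were densest 125 bp after the start in untreated cells, at 155, and 75 bp after it following LPS, at 69.1. At the far edges of the plotted window, 1 kb before the start, the sense value was 7.33 untreated and 4.21 after LPS. Around the annotated gene end, sense-strand tags were densest 375 bp before the end in untreated cells and 425 bp before it after LPS, inside the gene.

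**Figure D2:**
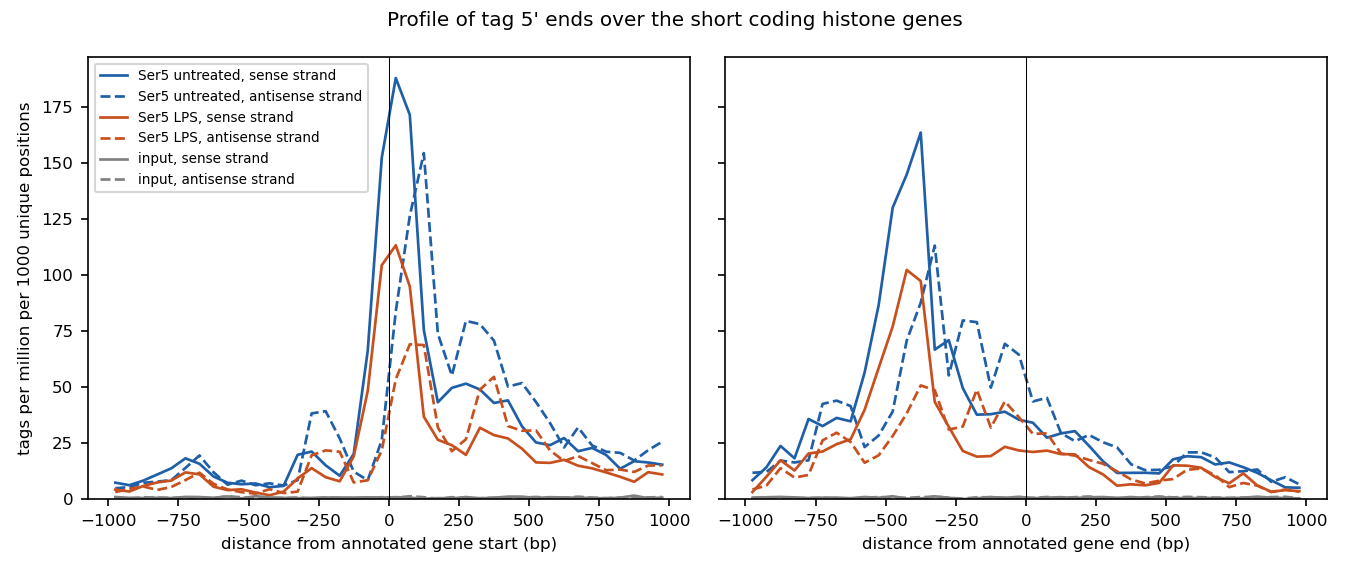
Density of tag 5′ ends (TPM per 1000 unique positions) in 50-bp bins around the annotated start (left) and end (right) of the 53 short coding histone genes, for untreated Ser5 (blue), Ser5 after LPS (orange) and input (grey), with the sense strand drawn solid and the antisense strand dashed. The maximum lies just after the start in both Ser5 libraries, at 188 and 113 on the sense strand, and the input is flat near 0.

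After 2 h of LPS, Ser5 over the histone genes was lower. The summed density was 0.629 times the untreated value (0.618 to 0.639), and the median ratio over the 65 members with enough tags was 0.583, with quartiles of 0.528 and 0.695, compared with a median of 0.868 over all 23505 genes with enough tags. The ratio was below 1 in 64 of the 65 members, compared with 63.9% of all genes (61 of 65 with 1 tag per position and strand), and below the median of all genes in 59 of them. No member was at least 2-fold higher after LPS, compared with 6.37% of all genes, and 13 of 65, or 20%, were at least 2-fold lower, compared with 12.1% of all genes. The latter count depended on the setting. With 1 tag kept per position and strand 8 of 65 (12.3%) were 2-fold lower, compared with 10.9% of all genes. Over gene bodies alone, not limited to unique positions, 25 of 59 (42.4%) were, compared with 12.3%. The median member body was 47.6% unique at 30 bases, the LPS tag length, and 55.3% at 45 bases, the untreated tag length. At positions unique with 2 mismatches 7 members were at least 2-fold lower, a setting for which no share of all genes was computed. At 1.5-fold 44 of 65 were lower, compared with 26% of all genes. In 61 of the 65 the whole counting interval lay below 1, in 4 it held 1 and in none did it lie above. This count was not made for all genes, and it depends on the number of tags as well as on the ratio. In bulk chromatin, fewer cells with Ser5 at a gene and less Ser5 per cell cannot be told apart.

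The size of this difference depended on how tags were counted, whereas the direction of the summed ratio did not, under the settings tried. The tags of the untreated library are 45 bases long and those of the LPS library 30, so more positions were within reach of the untreated library, and tag length cannot be told apart from treatment. Counting only positions unique at 30 bases in every library gave a summed ratio of 0.651. Over the members 56.9% of untreated tags and 65.1% of LPS tags lay at distinct positions and strands, compared with 84.5% and 81.4% of the whole libraries. With 1 tag kept per position and strand the summed ratio was 0.746, and the median member ratio was 0.686 beside 0.884 for all genes, with 57 of 65 members below that median. Scaling the libraries to the tags outside peaks raised the median of all genes by 0.11 on the log2 scale and the summed ratio to 0.676. Any such scaling acts on all genes alike, so the median of the members stays at 0.672 times the median of all genes by construction.

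As counted with duplicate tags kept, the difference was unequal along the genes. At positions unique at 30 bases the ratio of LPS to untreated was 0.629 over gene bodies (0.616 to 0.642), 0.601 over downstream flanks (0.574 to 0.630) and 0.751 over upstream flanks (0.721 to 0.782). Positions upstream of one member and downstream of another had 0.727 (0.689 to 0.767). No count by part was made with 1 tag per position and strand. Taken gene by gene for coding genes under 2 kb, without the filter on unique positions, the median ratio over the body was 0.501 for 49 members and 0.808 for 510 other genes. Over the upstream 1 kb it was 0.646 for 49 members and 0.833 for 508 other genes, and over the downstream 1 kb 0.613 for 48 members and 0.812 for 426 other genes.

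**Figure D3:**
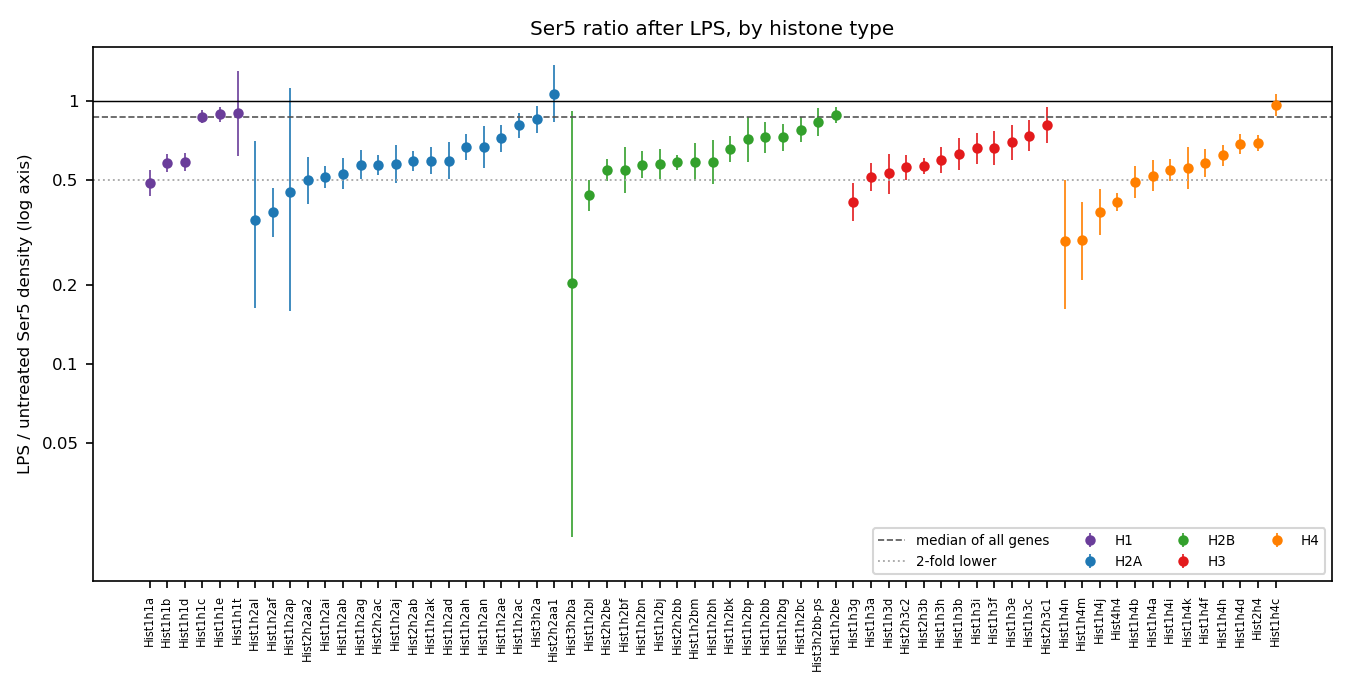
Ratio of Ser5 density after LPS to untreated (log axis) for the 65 members with at least 10 Ser5 tags, grouped by histone type and ordered by ratio. Lines are 95% counting intervals, the solid line is 1, the dashed line the median of all genes (0.868) and the dotted line a 2-fold lower density. All but Hist2h2aa1 lie below 1, and Hist1h1c, Hist1h1e, Hist1h1t, Hist1h2be, Hist1h4c and Hist2h2aa1 lie above the median of all genes.

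Among the H1 genes, whose sequences are the most distinctive, the members differed from each other. The summed H1 ratio was 0.717 (0.694 to 0.741). Hist1h1c, a linker histone gene of somatic cells with the highest untreated density in Hist1 (chr13:23830676-23832235), had 2743 tags untreated, 1959 after LPS and 24 in the input, a ratio of 0.870 (0.821 to 0.923). Hist1h1e, another of this kind, had 2043, 1487 and 25 tags, a ratio of 0.887 (0.829 to 0.949). With 1 tag per position and strand these 2 ratios were 1.004 and 1.054, so their direction changed with the treatment of duplicate tags. Hist1h1a had 1133, 453 and 25 tags, a ratio of 0.487 (0.436 to 0.544), and Hist1h1b had 1920, 915 and 20 tags, a ratio of 0.581 (0.536 to 0.629). The ratio of Hist1h1a was 0.589 with 1 tag per position and strand, no longer 2-fold lower. Counting intervals of Hist1h1c and Hist1h1e did not overlap those of Hist1h1a and Hist1h1b.

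The core histone genes had lower summed ratios than H1, 0.581 for H4 (0.563 to 0.598), 0.593 for H3 (0.573 to 0.614), 0.617 for H2A (0.597 to 0.638) and 0.650 for H2B (0.632 to 0.669). Hist1h1a alone, at 0.487, was below each of these sums. Regions of different types overlap, as those of Hist1h2be and Hist1h1e do, so the sums share tags. No sum by type was made with 1 tag per position and strand. Of the 13 members at least 2-fold lower after LPS, 5 were H4, 4 H2A, 2 H2B, 1 H3 and 1 H1. This tally includes Hist3h2ba, with 12 and 2 tags beside 14 in the input, and Hist1h2ap, with 19 and 7 tags and no unique position in its body. The H4 genes, whose products have the same core role, spanned from 0.292 for Hist1h4n to 0.962 for Hist1h4c. Hist1h4c had 932 tags untreated, 736 after LPS and 26 in the input, and its interval (0.873 to 1.06) held 1. Its value was above 1 with 1 tag per position and strand (1.04), at positions unique with 2 mismatches (1.01) and when scaled to tags outside the peaks (1.04). Hist1h4d had 1504, 846 and 31 tags, a ratio of 0.686, Hist1h4h 1358, 691 and 28 tags, a ratio of 0.620, and Hist1h4i 1416, 633 and 17 tags, a ratio of 0.545. These 3 had body shares of unique positions between 51.6% and 58.0%, close to the 55.2% of Hist1h4c. Their ratios also moved with the setting. With 1 tag per position and strand Hist1h4d had 0.902, Hist1h4h 0.769 and Hist1h4i 0.679. At positions unique with 2 mismatches they had 0.732, 0.697 and 0.738. The part of repeated copies in the spread of the H4 genes was not tested.

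The lowest ratios in Hist1 were often those of poorly measured copies. Hist1h4n had 71 tags untreated and 17 after LPS (0.292, 0.161 to 0.501) and Hist1h4m 185 and 45 (0.296, 0.209 to 0.413), with 6.38% and 3.21% of their regions unique at 30 bases. The ratio of Hist1h4m was 0.477 at positions unique at 30 bases and 0.540 with 2 mismatches, and that of Hist1h4n was 0.502 over its body alone. Hist1h2al, which lies alone at chr13:51298057-51298434, had 38 and 11 tags, a ratio of 0.353. Hist1h2af, an H2A gene with 382 and 118 tags and a ratio of 0.376 (0.304 to 0.464), and Hist1h4j, with 418 and 130 tags and a ratio of 0.379 (0.309 to 0.463), had 85.0% and 83.6% of their regions unique. Of their bodies, 20.05% and 39.3% was unique. Over its body alone, not limited to unique positions, the ratio of Hist1h2af was 0.219. Hist1h2ai, an H2A gene with 1374 and 580 tags, and Hist1h3h, an H3 gene with 951 and 464 tags, were in between at 0.514 and 0.595. Members with less than 50% of the body unique had a median ratio of 0.572, compared with 0.605 in the others, so both medians were below 1. At least 2-fold lower were 9 of 35 tested members of the former and 4 of 30 of the latter, compared with 12.1% of all genes. The part of repeated copies in these counts was not tested.

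**Figure D4:**
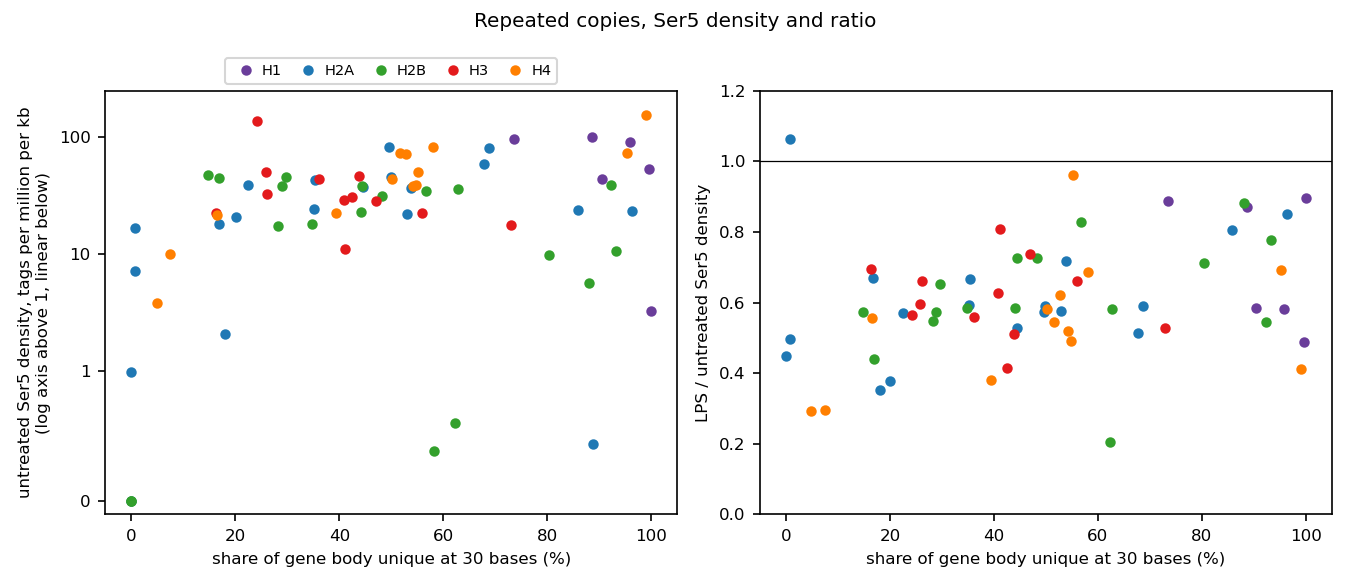
Untreated Ser5 density (left, log axis above 1 and linear below) for all 70 members and the LPS to untreated ratio (right) for the 65 with enough tags, against the share of the gene body unique at 30 bases, coloured by histone type. H1 genes lie at the right and H2A, H2B and H3 genes mostly below 60%, and ratios below 1 occur over the whole range of shares.

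In the Hist1 cluster as a whole, the 31116 untreated, 16533 LPS and 1091 input tags gave a ratio of 0.648 (0.635 to 0.660). The cluster falls into 5 blocks more than 100 kb apart. Block 1, with 19 genes, had a ratio of 0.553 (0.530 to 0.577), block 2, with 5 genes, 0.585 (0.549 to 0.624), and block 3, with 29 genes, 0.688 (0.672 to 0.703). Block 4 holds 2 testis-type genes and block 5 Hist1h2al alone. Within block 3 the ratios were not spread evenly. The 7 consecutive members from Hist1h2be to Hist1h1c, a stretch of 157 kb chosen after the values were seen, ranged from 0.777 to 0.962, and the other 22 members of the block from 0.376 to 0.736. This separation, which the choice of the stretch fixed, was not kept when positions were limited to those unique at 30 bases, where Hist1h3e outside the stretch had 0.828 and Hist1h2bc inside it 0.809 (0.879 and 0.872 with 2 mismatches allowed). The 7 are also not separate measurements, since Hist1h2be and Hist1h1e, Hist1h2ac and Hist1h2bc, and Hist1h1t and Hist1h4c each have a peak within 1 kb of both. Those 7 include Hist1h1e, Hist1h2ac, Hist1h2bc, Hist1h1t and Hist1h4c. Hist1h2be, an H2B gene annotated over 37383 bp up to the Hist1h1e region, had 1720 and 1245 tags (0.882, 0.819 to 0.949), and 0.789 when counted over its coding sequence with 1 kb on each side.

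**Figure D5:**
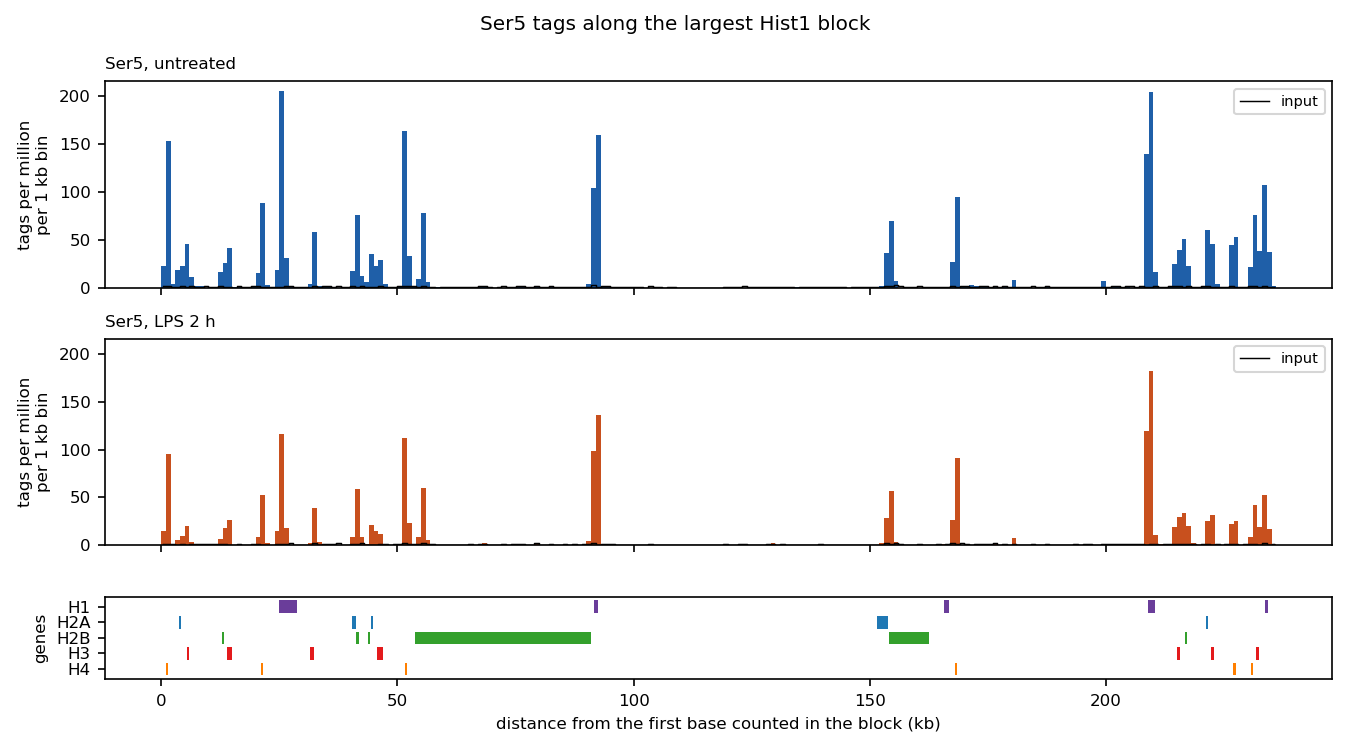
Ser5 density (TPM) in 1-kb bins along block 3 of the Hist1 cluster in untreated cells (top, blue) and after LPS (middle, orange), with input as a black line, and the position of the 29 genes by histone type (bottom). The x axis is the distance in kb from the first base counted. Tags stand in narrow columns, mostly at or beside the genes, and the highest bins are different ones, at 25.5 kb in untreated cells (205.3, and 115.8 after LPS) and at 209.5 kb after LPS (182.2, and 204.4 untreated).

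In the Hist2 cluster a Ser5 peak lay within 1 kb of all 10 members in both conditions. The peak counted for Hist2h2aa1 lay in its flank, shared with Hist2h3c1, and overlapped no member's body. The summed ratio was 0.612 (0.590 to 0.634), from 8699 untreated, 4365 LPS and 227 input tags. Hist2h3b, an H3 gene, had the second highest density of all members, 139.4 untreated, 78.7 after LPS and 1.17 in the input, from 2642, 1223 and 22 tags, a ratio of 0.564 (0.527 to 0.604). Only 223 of the 2642 untreated tags lay in its own body, and one peak covered part of it and the start of Hist2h2bb, which lies in its flank, so that most of its tags lay outside the gene and many are shared with this neighbour. Its neighbour Hist2h2bb, whose annotated gene is long, had 3123, 1493 and 63 tags (0.583). Hist2h4 had 2035, 1154 and 40 tags (0.691, 0.642 to 0.743). The divergent H2A and H2B genes Hist2h2ac and Hist2h2be had 1583 and 743, and 1375 and 615 tags, with ratios of 0.572 and 0.545, and the adjacent H2A gene Hist2h2ab 1475 and 715 tags with a ratio of 0.591. Over its body alone, not limited to unique positions, Hist2h2be had 401 and 90 tags, a ratio of 0.274. Over its region with the flanks it had 0.640 at positions unique with 2 mismatches and 0.625 with 1 tag per position and strand.

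The duplicated part of Hist2 could be measured only in part. Hist2h2aa1 had 142 tags untreated, 124 after LPS and 5 in the input, a ratio of 1.06 (0.830 to 1.36), the only ratio above 1 in the set. Its copy Hist2h2aa2 had 333, 136 and 6 tags, a ratio of 0.498 (0.405 to 0.609). The difference between the copies depended on the setting. At positions unique with 2 mismatches the ratio of Hist2h2aa2 was 0.776 (0.606 to 0.988), which overlapped the interval of Hist2h2aa1 (0.882 to 1.46), and Hist2h2aa2 was no longer 2-fold lower there, at exactly unique positions (0.645) or with 1 tag per position and strand (0.629). Since their bodies are identical, nearly all these tags lay in the flanks. The body of Hist2h2aa1 held 0 untreated and 0 LPS tags and that of Hist2h2aa2 4 and 0, so that the ratios describe the flanks and not the genes. Hist2h3c1 and the pseudogene Hist2h3c2, in the same repeat, had 420 and 279, and 1021 and 468 tags, with ratios of 0.810 and 0.559.

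In the Hist3 cluster the ratio was 0.838 (0.746 to 0.940), from 729 untreated, 501 LPS and 66 input tags. Hist3h2a, an H2A gene, had 708, 494 and 47 tags (0.850), and the pseudogene Hist3h2bb-ps, which lies head to head with it and shares its region, had 651, 443 and 21 tags (0.829). Most of these are tags of the shared region. Over its own body, not limited to unique positions, Hist3h2bb-ps had 45 tags untreated and 19 after LPS, a ratio of 0.515. Hist3h2ba had 12, 2 and 14 tags, no more than input, and no peak, although 91.1% of its region was unique at 30 bases.

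Hist4h4, the only Hist4 gene (chr6:136752589-136752900), had the highest untreated density of the 70 and is the H4 gene with the most distinctive sequence, 99.0% of its body being unique at 30 bases. It had 2750 tags untreated, 930 after LPS and 37 in the input, or densities of 156.2, 64.4 and 2.12. The ratio was 0.412 (0.382 to 0.444), and its interval did not overlap those of the summed Hist1, Hist2 and Hist3 ratios. These intervals cover counting error only and treat duplicate tags as separate. With 1 tag per position and strand the ratio of Hist4h4 was 0.647, outside its interval above. In that setting the summed ratios of Hist1, Hist2 and Hist3 were 0.750, 0.739 and 0.870.

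Of the 6 members without a peak, the 5 beside Hist3h2ba were of 2 kinds. The testis-type genes Hist1h2aa and Hist1h2ba, known for expression in male germ cells, lie together in block 4 with 88.3% and 89.8% of their regions unique. Hist1h2aa had 8 tags untreated, 1 after LPS and 10 in the input, and Hist1h2ba had 7, 0 and 10, where 0 tags allow a density of up to 0.201. Neither was above the input, and neither had a peak. The third testis-type gene, Hist1h1t, had 72, 53 and 24 tags, or densities of 3.25, 2.92 and 1.10, the lowest of the H1 genes, and the only peak within 1 kb of it in each condition was one that covers part of the neighbouring Hist1h4c. Within its own body Hist1h1t had 5 tags untreated, 2 after LPS and 7 in the input. The other kind were the repeated copies, Hist1h2bq and Hist1h2br with 0 tags in every library and Hist1h2ao with 0 tags untreated, 1 after LPS and 0 in the input, for which absence of tags says nothing about Ser5.

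Other genes of histone supply and S phase were taken from lists of known function. The 17 S-phase genes, which encode the replicative helicase, nucleotide synthesis enzymes and cyclins, had Ser5 peaks in both conditions, and 11 were at least 2-fold lower after LPS and none higher (12.1% and 6.37% of all genes), with a median ratio of 0.448 beside 0.868 for all genes. Mcm2, a helicase subunit, had 347 tags untreated, 62 after LPS and 101 in the input (0.218, 0.163 to 0.286), Mcm3 had 322, 66 and 107 (0.250), and E2f1, a transcription factor of S-phase entry, had 672, 162 and 74 (0.294). At the other end were Ccne2 (0.811), Cdc25a (0.806) and Pcna (0.783). Of 15 factors that transcribe or process histone mRNA, 1 was at least 2-fold higher and none lower, compared with 6.37% and 12.1% of all genes. Their median ratio was 0.963. The highest were Lsm11 (2.00, 1.65 to 2.44, from 169 and 278 tags), a subunit of the U7 particle, Cpsf2 (1.29) and Pou2f1 (1.25). The lowest were Cpsf3 (0.526), Eri1 (0.538) and Slbp, the protein that binds the hairpin shown above (0.578, from 601 and 285 tags).

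The 11 genes listed as replication-independent histone variants had a median ratio of 0.897. None was at least 2-fold higher or lower, compared with 6.37% and 12.1% of all genes. H3f3b, which encodes H3.3, had 1362 tags untreated and 1877 after LPS (1.68, 1.57 to 1.80), H1f0 463 and 380 (1.00) and H2afz 800 and 626 (0.954). H2afj (0.609), Cenpa (0.632) and H1fx (0.706) had the lowest ratios. Of the 12 histone chaperones, 1 was at least 2-fold higher and 2 were lower, shares near those of all genes (6.37% and 12.1%), with a median of 0.747. Daxx, an H3.3 chaperone, had 569 tags untreated and 1679 after LPS (3.60, 3.27 to 3.96), followed by Asf1a (0.936) and Ssrp1 (0.910). Chaf1b (0.420) and Chaf1a (0.487), subunits of the chaperone that loads H3 and H4 on copied DNA, and Asf1b (0.641) were the lowest.

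The labels were checked on other genes of the same libraries. All 6 genes picked as LPS-inducible had at least 2-fold more Ser5 after LPS, Ccl5 with 29 tags untreated and 9058 after LPS. All 5 macrophage markers found had peaks in both conditions. Of them, 4 were at least 2-fold lower after LPS and 1 (Emr1) higher, compared with 12.1% and 6.37% of all genes. Among the markers of T cells, B cells, neutrophils, erythroid cells and fibroblasts, 3 genes each, 1 (the B cell gene Cd79a, with 219 and 171 tags) had a peak, and Hbb-b1 was at 0 tags in both Ser5 libraries. The median density of each of these 5 lists was 0.0615 to 0.342 in the Ser5 libraries and 0.351 to 0.517 in the input. The part of other cells in the histone result was not tested.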

How the data were processed

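Ser5 Pol_II ChIP-Seq libraries of untreated and LPS-treated (2 h, 10 ng/ml) bone marrow-derived macrophages and 1 library of input DNA were used, grouped by the sample labels. The authors shortened 76-base reads from their 3′ end before alignment. Bowtie (version not given in the sources used here) was run on mm9. By the study's methods, uniquely mappable reads with at most 2 mismatches were kept. MACS peaks (p-value limit 1e-05) were called for both Ser5 libraries with the input as control. Every aligned tag is listed in the deposited files by coordinates and strand, duplicates included, and the score in the deposited peak lists is minus 10 times log10 of the MACS p-value. Replicates were not pooled by the authors, since each condition had 1 library. Tags in the files were 45 bases long in untreated Ser5, 30 in LPS Ser5 and 36 in the input. The study's methods give the first 2 of these lengths the other way round, and the lengths in the files were used. Of 7624549, 6259018 and 7547185 tags, the 7616771, 6249819 and 7533308 on chromosomes 1 to 19 and X were used.

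Tags were counted by their 5′ ends on both strands over each GENCODE M1 gene with 1 kb on each side, scaled to these totals, and divided by the region's length. Sums over several genes used the union of their regions. Intervals are 95% intervals (exact Poisson for counts, exact conditional on the sum for ratios) and cover counting error only, and reads without molecular identifiers are not independent molecules. Genes were called higher or lower at 2-fold with at least 10 tags over the 2 libraries compared, with 0 tags set to 0.5, and a count of 0 was read against a floor of 3 tags. The precision of a ratio follows the tag count behind it. Unique positions were found by comparing every sequence of 30, 36 or 45 bases in the regions with both strands of mm9, with 0 or 2 mismatches. This was tested on simulated data, where all copy numbers equalled a direct count (371, 365 and 356 sequences). Tags also lay at positions whose 30 bases have another copy in mm9 within 2 mismatches. Whether some of these tags belong to the other copy was not tested. Sequences were read from the mm9 assembly, whereas Fvb/Hsd mice can differ from it.

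The members, the lists and the alternatives were chosen with earlier results of these data known. Named genes are all Hist2, Hist3 and Hist4 members and, in Hist1, the 10 with the highest untreated density, the 5 highest and 5 lowest ratios among members with at least 20 Ser5 tags, members with 0 tags in a Ser5 library and the testis-type genes, and in the other lists the 3 highest and 3 lowest ratios among genes with at least 50 Ser5 tags. One macrophage marker symbol (Spi1) had no match in the annotation. Alternatives were collapsed duplicates (1 tag per position and strand), a 75-bp shift of tags, positions unique with 2 mismatches, gene body alone, scaling to tags outside the peaks, other minimums and folds (1.5), and other peak overlaps and scores (100). Exactly unique positions and coding spans were added after seeing the data. Python 3.11.15, numpy 2.4.6, pandas 2.3.3, scipy 1.17.1, numba 0.67.0 and matplotlib 3.10.9 were used.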

Additional observations from a re-analysis of the deposited data

How the results depend on the processing

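No paired analysis was possible because each condition had 1 library, and for the same reason no replicate could be left out. Moving tags by 75 bp changed no summed ratio or count beyond its interval or by over 1.5 times. The summed LPS to untreated ratio over all members (0.629) was 0.746 with 1 tag per position and strand, 0.715 at positions unique at 30 bases with 2 mismatches, 0.599 over gene bodies alone, 0.676 scaled to tags outside the peaks and 0.651 at exactly unique positions. In the same order it was 0.750, 0.730, 0.627, 0.697 and 0.674 for Hist1. For Hist2 it was 0.739, 0.715, 0.570 and 0.658 under the first 4 of these settings, and for Hist4 it was 0.647, 0.487 and 0.346 under the first 3. The untreated to input ratio (30.1) was 20.2, 26.1, 42.5 and 57.3 under the first 4, and 40.02 over coding spans. The LPS to input ratio (18.9) was 15.04 with 1 tag per position and strand, 25.4 over bodies, 38.8 scaled outside the peaks and 25.1 over coding spans.

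The count of members at least 2-fold lower (13) was 8 with 1 tag per position and strand (10.9% of all genes) and 7 at positions unique with 2 mismatches (no share of all genes computed). Over bodies, not limited to unique positions, it was 25 (12.3% of all genes). At least 1.5-fold lower were 44 members (26% of all genes). Without a minimum of tags 1 member, Hist1h2ao with 0 and 1 tags, was at least 2-fold higher. A peak covered at least 50% of the gene body in 42 members untreated and 40 after LPS, a rule for which no share of all genes was computed. The ratios of Hist1h1c and Hist1h1e turned to 1.004 and 1.054 with 1 tag per position and strand, and that of Hist1h4c to 1.039 there, 1.008 at positions unique with 2 mismatches and 1.036 scaled outside the peaks. The cause of these changes was not tested. Depth limits members with few tags, and repeated copies limit the members named above at any depth.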
